A study of Mus musculus with 48 samples.

Results

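The interleukin-6 (IL-6) family and its signaling through the transcription factor STAT3 were followed in the ischemic mouse brain through 9 genes. The genes were chosen by name, with earlier results of these data known, so counts of them beside all genes are descriptions. They were the cytokine genes *Il6*, *Osm* (oncostatin M), *Lif* (leukemia inhibitory factor) and *Clcf1* (cardiotrophin-like cytokine factor 1), the receptor genes *Il6st* (gp130) and *Osmr* (oncostatin M receptor), *Stat3* itself, *Socs3* (the feedback inhibitor) and *Bcl3* (a partner of nuclear factor κB). The 9 genes were taken from 46983 genes counted, and all 9 passed the filter of more than 10 counts in total that left 19970 genes for testing. The 48 libraries came from brain tissue of 3-month-old male C57Black/6 mice, given in the methods as the injured cortical region, unaffected tissue included. The study's text and the series' design text speak instead of most of a forebrain hemisphere, so how much deep tissue a library holds is not settled, and each level is one of mixed tissue. In the MCAO groups the middle cerebral artery was permanently occluded by coagulation and cut, in the sham groups the same surgery was done without coagulation, and the control was intact cortex. MCAO and sham libraries were made at 3 h, 12 h, 24 h, day 3 and day 7, with 4 libraries in the control and in each sham group, 4 in the MCAO group at 24 h and 5 in each other MCAO group. The study describes its bulk replicates as mice. The labels give the libraries the letters A to E and tie none to an animal of its own, so p-values measure the spread between these libraries.

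In this family a cytokine binds a receptor complex, which for the cytokines followed here includes gp130. Receptor-bound Janus kinases (JAKs) phosphorylate STAT3, which dimerizes, enters the nucleus and binds DNA at palindromic sites. The inhibitor SOCS3 is induced by STAT3 and binds gp130, closing a feedback loop, and STAT3 also raises its own transcription. In injured brain the pathway is known for its part in astrocyte reactivity and scar formation.

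On the GRCm38 build, *Socs3* (ENSMUSG00000053113.3) lies at chr11:117966079-117970047 on the minus strand and *Stat3* (ENSMUSG00000004040.16) at chr11:100885098-100939540 on the minus strand. *Osm* (ENSMUSG00000058755.3, chr11:4236420-4241026) and *Lif* (ENSMUSG00000034394.14, chr11:4257557-4272514) are near neighbors on the plus strand. *Il6st* (ENSMUSG00000021756.12) lies at chr13:112464070-112510086 (plus), *Osmr* (ENSMUSG00000022146.12) at chr15:6813577-6874969 (minus), *Il6* (ENSMUSG00000025746.11) at chr5:30013114-30019981 (plus), *Clcf1* (ENSMUSG00000040663.8) at chr19:4214238-4223490 (plus) and *Bcl3* (ENSMUSG00000053175.16) at chr7:19808462-19822770 (minus). All 9 are annotated as protein-coding.

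RefSeq promoter windows (GRCm38.p6, 250 bases before to 50 after the annotated start) were at hand for 7 of the 9 genes, not for *Osm* and *Clcf1*. They were searched for TTCNNNGAA, the STAT palindrome, which reads the same on both strands. *Socs3* held it and the other 6 did not, and 8.3% of all 32851 windows hold it. The *Socs3* window is shown because it was the only 1 of the 7 with a match. It covers chr11:117969317-117969616 on the minus strand, with the palindrome in capitals at chr11:117969512-117969520, starting 154 bases before the RefSeq start. That start lies 681 bases inside the 5′ end that Gencode gives the gene. A match describes the letters and was not tested as a binding site.
Socs3: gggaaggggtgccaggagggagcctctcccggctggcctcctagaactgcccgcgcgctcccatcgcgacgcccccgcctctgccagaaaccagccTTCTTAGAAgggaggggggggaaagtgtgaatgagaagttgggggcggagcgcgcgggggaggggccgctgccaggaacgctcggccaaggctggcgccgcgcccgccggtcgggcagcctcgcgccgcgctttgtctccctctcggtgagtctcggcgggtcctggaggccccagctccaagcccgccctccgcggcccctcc

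Each library held 1522668 to 2826735 counts on genes (median 1935856), from a protocol that sequences the 3′ ends of transcripts, so a level is given as CPM (a gene's share of the library's counts, scaled to a common total) and compared only within a gene. The 9 neuronal markers listed for checking the tissue were all detected, with a summed level of 6513 to 13910 CPM over the 48 libraries. Several libraries stood apart in markers of other cells or regions. The library MCAO 12 h E held 1744 CPM of neutrophil markers (7 of 8 detected in the series) and MCAO day 3 C 704 CPM, against 1.83 to 10.8 CPM over the sham libraries. In MCAO day 7 C the 7 fibroblast markers summed to 5585 CPM, against 206.5 to 546.5 CPM in the other 4 libraries of that group. Markers of the striatum, the deep region beneath the cortex, ranged from 134 to 3343 CPM among MCAO libraries and from 312 to 2186 CPM among sham libraries. Whether a level in whole tissue changed through the number of cells of a type or through the RNA per cell cannot be told apart.

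Against sham at the same time, *Stat3*, the receptor gene *Osmr* and the feedback inhibitor *Socs3* were higher after MCAO at 12 h and day 3, and no member was called lower at any of the 5 times. Calls rest on edgeR's quasi-likelihood test, fitted across all 11 groups, and need an adjusted p (Benjamini-Hochberg, over all genes) below 0.01 with a log2 fold change beyond 0.58 in either direction. At 12 h 3 of the 9 members were called higher (*Stat3*, *Osmr* and *Socs3*), where 0.346% of all genes were. At day 3 there were 6 (*Stat3*, *Osmr*, *Socs3*, *Il6st*, *Clcf1* and *Bcl3*), where 3.76% of all genes were called higher. At day 7 there was 1 (*Osmr*), with 2.07% of all genes called. At 3 h and 24 h edgeR called 0 members, with 0.0901% and 0.0801% of all genes called higher. At an unadjusted p under 0.05 (edgeR) there were 3 members at 3 h and 6 at 24 h, beside 1688 and 1757 of all 19970 genes. DESeq2 called 0 and 2 members, and its share of all genes is not given here. The shares of all genes that edgeR called lower were 0.02%, 0.0651%, 0.01%, 0.26% and 1.43% from 3 h to day 7. The median log2 ratio of pooled counts over the members was 0.61, 1.68, 1.68, 2.44 and 1.85 from 3 h to day 7, beside 0.00, 0.02, 0.02, 0.02 and 0.07 over all genes, with 3 counts standing for a sham group at 0 and genes at or under 3 counts in both groups left out.

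**Figure D1:**
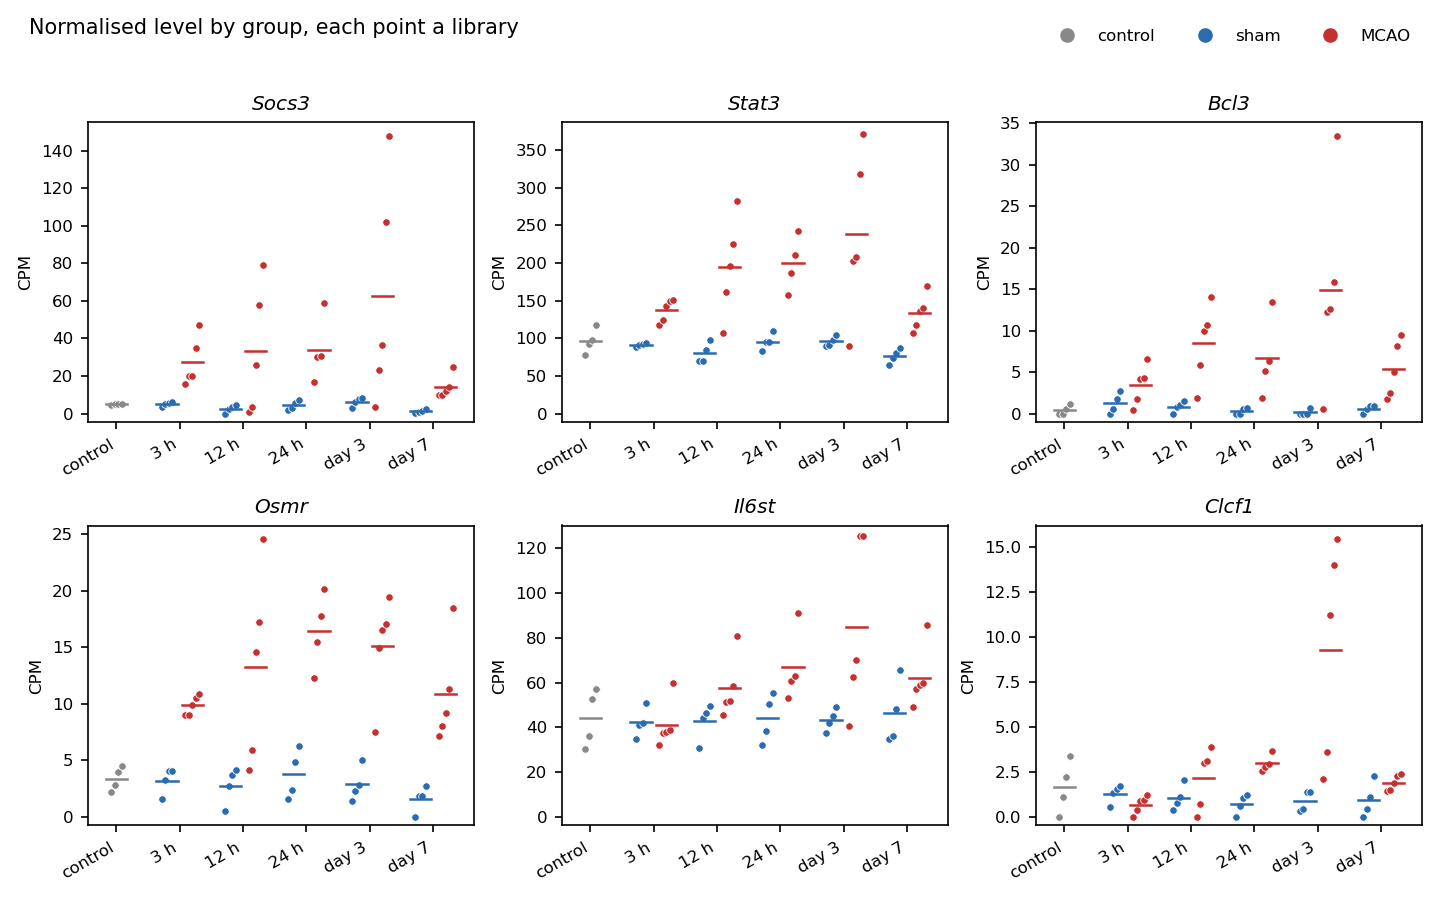
Normalised level (CPM) of 6 members by group on the y axis, with the control and each time on the x axis; each point is a library and each bar the mean of its group. *Socs3*, *Stat3* and *Osmr* sit above sham in every MCAO library at 3 h, 24 h and day 7, while at 12 h and day 3 the MCAO libraries spread widely and for *Socs3* the lowest fall among the sham values.

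The ligands were scarce. *Osm* encodes oncostatin M, a cytokine made mainly by myeloid cells, and had 42 counts in the 48 libraries. Replicates A to E of MCAO held 0, 2, 3, 1 and 0 counts at 3 h, 0, 0, 4, 0 and 11 at 12 h, 0, 0, 4, 2 and 1 at day 3 and 0, 0, 6, 0 and 1 at day 7, and replicates A to D held 0, 0, 2 and 2 at 24 h. Of the 24 libraries without MCAO, 2 held any, with 3 counts in all. The count was thus highest in MCAO 12 h E, the library with the most neutrophil RNA, and at day 7 it came from replicate C, the library rich in fibroblast markers, apart from 1 count in E. Pooled over the group, *Osm* had 15 counts after MCAO against 0 after sham at 12 h, a ratio of 4.47 with 3 counts standing for the sham. That value does not cover the error of the 15 counts, 11 of which came from replicate E. *Osm* was not called at any time (adjusted p = 0.164 at 12 h, edgeR).

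*Lif*, a cytokine of neurons and glia after injury, had 31 counts in all and at most 4 in a library. It was present in 14 of 24 MCAO libraries and in 6 of 24 others, and 3 h stood out among the shams, with 1, 2, 2 and 0 counts in replicates A to D. The pooled MCAO to sham ratio was 0.78 at 3 h (5 counts against 5, 95% counting interval 0.18 to 3.39) and 6.12 at day 7 (7 against 1, 0.786 to 276). *Il6*, the founding member of the family, had 19 counts in all. They fell in 7 MCAO libraries and 2 shams, with 4, 0, 1 and 0 counts in MCAO 24 h A to D, 0, 0, 3, 0 and 3 in MCAO day 3 A to E and 0 in all 9 libraries of day 7. At 12 h there were 4 counts after MCAO against 0 in sham, a ratio of 1.19 with 3 counts standing for the sham. That value does not cover the error of the 4 counts and is no lower limit. Neither gene was called at any time, and the levels of these 3 cytokines are those of a few counts.

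**Figure D2:**
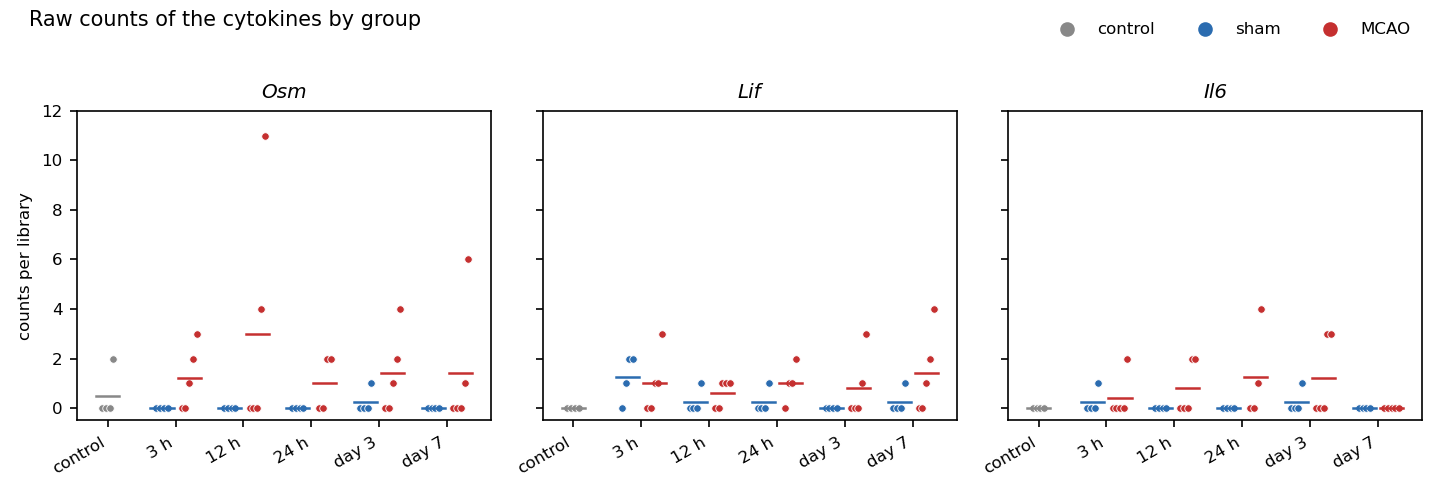
Raw counts per library (y axis) of *Osm*, *Lif* and *Il6* by group (x axis), with bars at the group means. Most libraries hold 0, and the highest is 11 counts of *Osm* in the MCAO library E at 12 h.

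*Clcf1*, whose product signals through the ciliary neurotrophic factor receptor and gp130, was the ligand that was called. At day 3 replicates A to E of MCAO were at 2.13, 3.62, 13.98, 11.2 and 15.4 CPM and the shams A to D at 0.363, 1.39, 1.4 and 0.469 CPM. Every MCAO library was above every sham, with 3 of the 5 far above the rest. The log2 fold change was 3.31 ± 0.69 (SE, adjusted p = 9.1e-04), from 98 counts against 8. With the day 3 groups alone in the fit the value was 3.31 and the call was lost. At 24 h the groups were also separate, at 2.55, 2.8, 2.96 and 3.67 CPM against 0.594, 0, 1.22 and 1.05 CPM, but the difference of 1.94 ± 0.81 was not called (adjusted p = 0.456). At 3 h the values ran the other way, from 0 to 1.21 CPM after MCAO and from 0.545 to 1.73 CPM in sham (log2 -0.91 ± 0.81, adjusted p = 0.825). At day 7 the MCAO libraries were at 1.44 to 2.38 CPM, within reach of the highest sham at 2.29 CPM (log2 1.01 ± 0.78, adjusted p = 0.459).

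*Osmr* encodes the chain that, with gp130, forms the oncostatin M receptor, and it was the member called at most times (12 h, day 3 and day 7). The 4 control libraries were at 2.23, 4.5, 3.95 and 2.85 CPM. At 3 h MCAO A to E were at 9.04, 9.92, 10.9, 9.05 and 10.5 CPM and the shams at 1.58, 4.03, 4.03 and 3.27 CPM. The groups did not overlap and the 5 MCAO values lay close together, and the difference was not called (log2 1.62 ± 0.46, adjusted p = 0.129). At 12 h MCAO was at 5.93, 14.6, 24.5, 4.12 and 17.3 CPM and sham at 0.559, 4.17, 3.7 and 2.73 CPM. Replicate D fell just below the highest sham, and the log2 fold change was 2.19 ± 0.45 (adjusted p = 0.0059). The call was lost without MCAO replicate B, C or E (1.84 to 2.15), or without any of the 4 shams (1.89 to 2.39). At 24 h the values were 12.3, 15.4, 17.8 and 20.2 CPM against 2.38, 6.32, 4.88 and 1.57 CPM. Every MCAO library was higher, with a log2 fold change of 2.12 ± 0.47 that missed the threshold (adjusted p = 0.0256).

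At day 3 *Osmr* was at 7.47, 14.9, 16.5, 17.1 and 19.4 CPM in MCAO A to E and at 1.45, 5.08, 2.8 and 2.34 CPM in sham. At day 7 it was at 8.08, 9.16, 18.4, 7.2 and 11.3 CPM and 0, 1.87, 2.73 and 1.82 CPM. The groups were separate at both times, with log2 fold changes of 2.37 ± 0.45 (adjusted p = 2.5e-04) and 2.68 ± 0.51 (adjusted p = 5.4e-04). Without the day 7 library C, rich in fibroblast RNA, the day 7 value was 2.40 and was still called. Scaled to the ERCC spike-ins the 12 h call was lost (2.06), and with the compared groups alone in the fit those at 12 h (2.18) and day 7 (2.67) were lost, while the day 3 call was kept in both. Against control the log2 fold change was -1.02 ± 0.60 in sham day 7 (adjusted p = 0.664) and 1.65 ± 0.46 in MCAO day 7 (adjusted p = 0.0305).

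*Il6st*, the shared signal-transducing chain, moved least of the members with enough counts to measure. In the control it was at 52.5, 30.4, 36.1 and 57.1 CPM. At 3 h MCAO replicate C was at 59.99 CPM and the other 4 at 32.3 to 38.8 CPM, among shams at 34.9 to 51.01 CPM (log2 -0.04 ± 0.25, adjusted p = 0.993). At day 3 MCAO A to E were at 40.6, 62.4, 125, 69.8 and 125 CPM and sham at 48.96, 42.01, 37.4 and 44.97 CPM. There 4 of the 5 MCAO libraries lay above all shams and replicate A among them, and the gene was called (log2 0.97 ± 0.25, adjusted p = 0.0076). The call was lost without MCAO replicate C (0.78) or E (0.78), or without any of the 4 shams (0.90 to 1.02). It was also lost under scaling to the ERCC spike-ins (0.68), with the replicate block (0.90) and with the day 3 groups alone in the fit (0.95). The differences at 12 h, 24 h and day 7 were 0.43 ± 0.25, 0.60 ± 0.26 and 0.43 ± 0.25, none of them called (adjusted p of 0.424, 0.482 and 0.291).

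*Stat3* was the most precisely measured member, with 13019 counts and at least 124 in each library. The control was at 98.2, 92.2, 118 and 78.2 CPM and the shams ran from 64.3 to 109 CPM over the 5 times. At 3 h MCAO A to E were at 151, 143, 149, 124 and 118 CPM and sham at 93.3, 90.4, 92.8 and 88.8 CPM. Each MCAO library exceeded each sham, by a small margin (log2 0.58 ± 0.22, adjusted p = 0.405). At 12 h MCAO was at 108, 196, 282, 161 and 224 CPM and sham at 69.3, 83.95, 97.2 and 70.1 CPM. The groups stayed separate and the log2 fold change was 1.27 ± 0.23 (adjusted p = 9.9e-04). That call held without each of the 9 libraries in turn, MCAO 12 h E with its neutrophil markers included (1.21). It was lost with the 12 h groups alone in the fit, at nearly the same value (1.27).

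At 24 h *Stat3* was at 157, 187, 211 and 242 CPM against 95.02, 82.8, 109 and 94.4 CPM, all MCAO libraries above all shams (log2 1.06 ± 0.23, adjusted p = 0.0259). At day 3 MCAO A to E were at 89.7, 203, 372, 208 and 318 CPM and sham at 98.3, 90.02, 90.6 and 105 CPM. Replicate A was below every sham, while the other 4 were above every library of 3 h and day 7, and the gene was called (log2 1.31 ± 0.22, adjusted p = 6.4e-05). With the day 3 groups alone the value was 1.29 and the call was lost, and with the 24 h groups alone *Stat3* was called at 24 h (1.05). At day 7 the values were 136, 106, 169.6, 117 and 140.3 CPM against 80.1, 73.7, 86.7 and 64.3 CPM, again with no overlap (log2 0.81 ± 0.23, adjusted p = 0.0159).

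*Socs3* encodes the feedback inhibitor. In the control it was at 4.46, 5.06, 5.08 and 5.14 CPM, and the 24 libraries without MCAO spanned 0 to 8.34 CPM. At 3 h MCAO A to E were at 19.9, 34.97, 46.98, 20.2 and 15.9 CPM and sham at 5.14, 6.33, 5.83 and 3.27 CPM. Each MCAO library was above each sham, at a pooled ratio of 5.46 (95% counting interval 3.96 to 7.71), and the fitted log2 fold change of 2.41 ± 0.71 was not called (adjusted p = 0.159). The fit shares 1 estimate of the spread over the 11 groups, and with the groups of 1 time alone in the fit, at nearly the same values, *Socs3* was called at 3 h (2.42), 24 h (2.86) and day 7 (3.40) and lost its calls at 12 h and day 3. At 12 h MCAO was at 0.742, 25.7, 79.3, 3.53 and 57.8 CPM and sham at 0, 4.69, 3.33 and 2.34 CPM. Replicates B, C and E were far above sham and A and D within it, and the gene was called (log2 3.61 ± 0.78, adjusted p = 0.0082). The call was lost without MCAO replicate C (2.98) or E (3.32), or without any of the 4 shams (3.26 to 3.96).

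At 24 h *Socs3* was at 16.6, 29.9, 30.5 and 58.7 CPM against 2.97, 5.69, 1.83 and 7.34 CPM, with no overlap (log2 2.87 ± 0.77, adjusted p = 0.106). At day 3 MCAO A to E were at 3.74, 23.1, 148, 36.6 and 102 CPM and sham at 8.34, 6.001, 7.94 and 2.81 CPM. Replicates C and E were the highest of all 48 libraries and replicate A lay within the shams, and the gene was called (log2 3.295 ± 0.68, adjusted p = 8.1e-04). At day 7 MCAO was at 9.81, 9.67, 24.99, 13.9 and 11.9 CPM and sham at 2.29, 1.4, 0.545 and 0.912 CPM. Every MCAO library was above every sham, and the 4 shams were all below the 4 controls. The log2 fold change was 3.40 ± 0.95 against sham (adjusted p = 0.016) and 1.49 ± 0.77 against control (adjusted p = 0.354). The difference of sham day 7 from control was not called (log2 -1.91 ± 1.12, adjusted p = 0.666).

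*Bcl3* encodes a nuclear cofactor of nuclear factor κB and is a known STAT3 target. It was nearly silent without MCAO, with 32 counts over 24 libraries and at most 7 in 1. At 3 h MCAO A to E held 3, 14, 10, 10 and 1 counts and sham 7, 0, 4 and 1, values that overlapped (log2 1.31 ± 0.79, adjusted p = 0.681). At 12 h MCAO held 5, 12, 27, 17 and 18 counts and sham 0, 2, 4 and 2. All MCAO libraries were above all shams in CPM, and the log2 fold change of 3.17 ± 0.80 missed the threshold (adjusted p = 0.0295). At 24 h MCAO held 12, 4, 15 and 22 counts and sham 1, 1, 0 and 0, again with no overlap in CPM, at a pooled ratio of 21.3 (95% counting interval 5.60 to 180, adjusted p = 0.0643). At day 3 MCAO A to E held 1, 28, 67, 25 and 36 counts and sham 2, 0, 0 and 0. Replicate A was at the level of sham and the other 4 far above it, and the gene was called at a pooled ratio of 69.4 (18.9 to 578, adjusted p = 3.0e-05). At day 7 the values were 1.73, 2.54, 9.52, 8.16 and 5.01 CPM against 0, 0.933, 0.545 and 0.912 CPM, separate but not called (log2 2.99 ± 0.89, adjusted p = 0.0243).

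**Figure D3:**
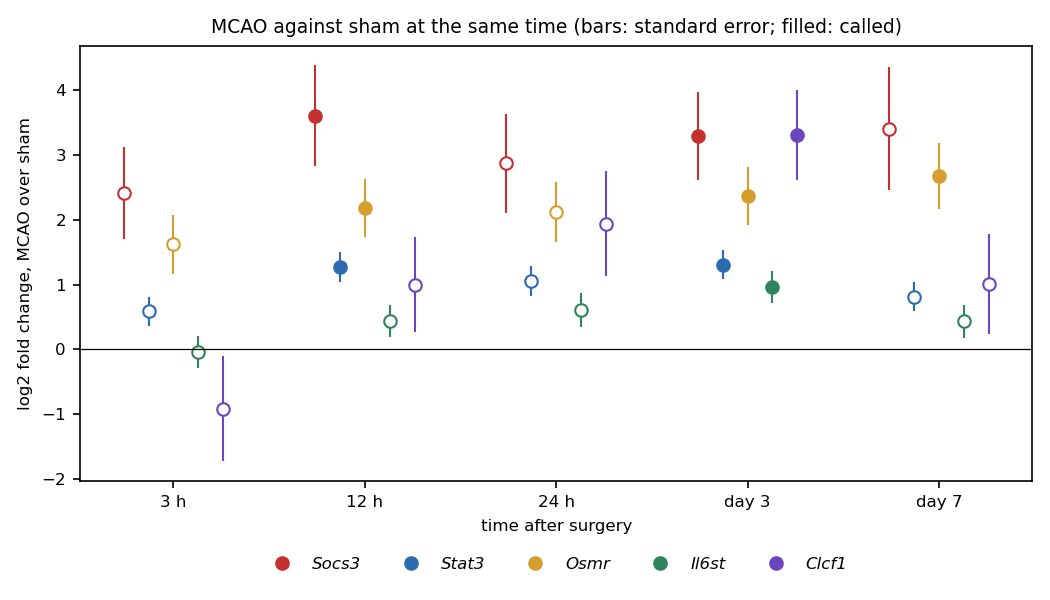
Log2 fold change of MCAO over sham (y axis) at each time (x axis) for 5 members, with bars of 1 standard error from edgeR and filled points where the gene was called. *Stat3* and *Il6st* have the shortest bars, and *Socs3* lies between 2.41 and 3.61 at all 5 times while being called at 12 h and day 3.

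The number of members with every MCAO library above every sham followed another order than the calls. It was 3 at 3 h (*Socs3*, *Stat3* and *Osmr*), 2 at 12 h (*Stat3* and *Bcl3*), 5 at 24 h (*Socs3*, *Stat3*, *Osmr*, *Clcf1* and *Bcl3*), 2 at day 3 (*Osmr* and *Clcf1*) and 4 at day 7 (*Socs3*, *Stat3*, *Osmr* and *Bcl3*). The shares of all genes tested were 2.27%, 2.03%, 3.73%, 4.33% and 5.38% in that order. Day 3, with the most calls, thus had few separate members, since replicate A lay within or below sham for *Socs3*, *Stat3*, *Il6st* and *Bcl3*. That library also had the lowest microglial (532 CPM) and neutrophil (9.08 CPM) marker sums of its group, and without it the same number of members, 6, was called.

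The size of the MCAO effect was compared between consecutive times by the interaction in the same fit. No member was called in any of the 4 comparisons by edgeR or DESeq2, where 0.01%, 0.01%, 0.01% and 0% of all genes were called. At an unadjusted p under 0.05 there was *Stat3* from 3 h to 12 h, with a difference of 0.69 ± 0.31 on the log2 scale (adjusted p = 0.685), and *Clcf1* from day 3 to day 7 (-2.30 ± 1.10, adjusted p = 0.290). In the same comparisons 1421 and 3231 of all 19970 genes had an unadjusted p under 0.05. For *Socs3* the effect differed by 1.19 ± 1.08 from 3 h to 12 h and by 0.11 ± 0.90 from day 3 to day 7 (adjusted p of 0.854 and 1.0).

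The surgery alone was examined by setting each sham group against the control. No member was called at any time by edgeR or DESeq2, and the shares of all genes called were 0%, 0.0351%, 0.01%, 0% and 0% from 3 h to day 7. The only member with an unadjusted p under 0.05 was *Lif* at 3 h, with 5 counts in sham and 0 in control. In that comparison 736 of all 19970 genes had one. Against control, MCAO was higher for *Stat3* and *Bcl3* at 12 h (0.386% of all genes called higher), for *Osmr* at 24 h (0.12%) and for *Stat3*, *Socs3*, *Osmr* and *Bcl3* at day 3 (2.81%). At 3 h and day 7 edgeR called 0 members (0.115% and 1.09% of all genes). Its unadjusted p was under 0.05 for 5 and 4 members, beside 1827 and 2982 of all 19970 genes. DESeq2 called 0 and 1 members, and its share of all genes is not given here. At day 3 the log2 fold changes against control were 3.65 ± 0.73 for *Socs3* (adjusted p = 6.4e-04), 1.30 ± 0.23 for *Stat3* (adjusted p = 1.1e-04) and 2.14 ± 0.45 for *Osmr* (adjusted p = 0.0013). These comparisons share their MCAO libraries with those against sham. For *Osmr* at 24 h the value was 2.25 ± 0.47 (adjusted p = 0.0067). For *Bcl3* the control held 3 counts over 4 libraries, against 79 in MCAO at 12 h and 157 at day 3.

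Over the 24 MCAO libraries the Spearman correlation of CPM was 0.84 between *Socs3* and *Stat3*, 0.83 between *Socs3* and *Osmr* and 0.83 between *Stat3* and *Osmr*. It was 0.81 between *Stat3* and *Bcl3* and 0.78 between *Stat3* and *Clcf1*, but 0.15 between *Stat3* and *Lif*. Over the 24 sham and control libraries the first 3 pairs were at 0.365, 0.271 and 0.14. There *Stat3* was at -0.183 with *Bcl3*, -0.03 with *Clcf1* and 0.109 with *Lif*, and of these genes all but *Stat3* had few counts. The points share their groups and, within a library, its tissue piece and depth, so the values are descriptions. Of the 5 highest *Stat3* libraries, MCAO day 3 C, day 3 E, 12 h C, 24 h D and 12 h E, all were also the 5 highest for *Socs3*. The 3 h libraries had high *Socs3* at modest *Stat3*, as in replicate C, with 46.98 and 149 CPM. MCAO 12 h D had the opposite, with 3.53 CPM of *Socs3* at 161 CPM of *Stat3*.

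**Figure D4:**
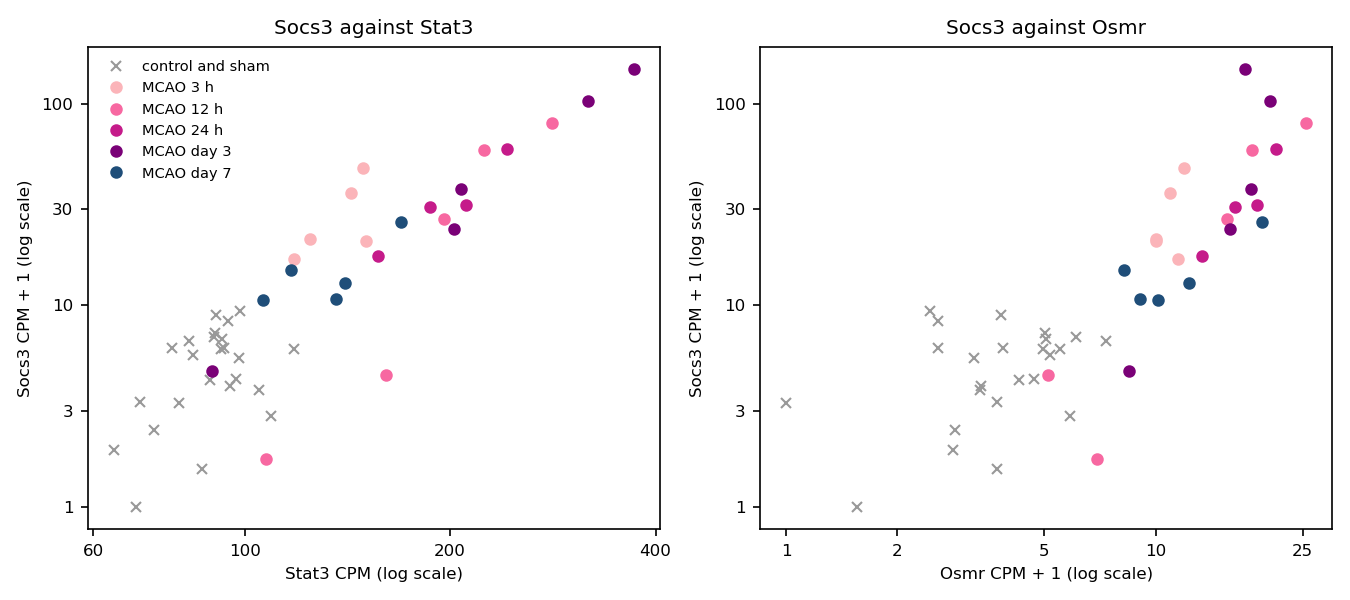
*Socs3* (CPM + 1, log scale, y axis) against *Stat3* (CPM) and *Osmr* (CPM + 1) on log-scaled x axes, each point a library. The 24 MCAO libraries follow a rising band in both panels, and 3 of them, MCAO 12 h A and D and MCAO day 3 A, fall at the *Socs3* level of control and sham.

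Over the same 24 libraries *Socs3* had a correlation of 0.66 with the neutrophil marker sum, 0.38 with that of peripheral myeloid cells, -0.04 with that of microglia and -0.75 with that of astrocytes. For *Stat3* the values were 0.70, 0.48, 0.14 and -0.75. *Il6st* ran with peripheral myeloid (0.71), fibroblast (0.65) and microglial (0.54) markers. The neutrophil sum was 12.98, 35.9, 183, 180.0 and 1744 CPM in MCAO 12 h A to E. There *Socs3* was low in D and higher in C than in E, so the order was not the same. In MCAO 24 h A to D the order was the same, with sums of 37.4, 38.3, 59.3 and 76.4 CPM and *Socs3* at 16.6, 29.9, 30.5 and 58.7 CPM. At 3 h, day 3 and day 7 the orders differed in part. The 8 astrocyte markers summed to 3358 to 5342 CPM in MCAO libraries and to 4178 to 6097 CPM in sham. A sum follows its most abundant genes, and *Gfap* was not among the 8. Singly, *Aqp4* was called higher against sham at day 3 and *Aqp4* and *Gja1* at day 7, and none of the 8 was called lower at any time. The median log2 fold change of the 8 was -0.156 at day 3 and 0.311 at day 7. The part of these cell types in the members' levels was not tested.

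Over all 48 libraries and among 13911 genes with a mean of at least 2 CPM, the 5 genes most like *Socs3* in Spearman correlation were *Ccl2* (0.885), a chemokine that draws monocytes, *Osmr* (0.827), *Cd44* (0.826), *Stat3* (0.823) and *Cd14* (0.818). For *Stat3* they were *Hcar2* (0.890), *Ccl2* (0.882), *Tnfrsf1a* (0.881), a receptor of tumor necrosis factor, *Clec4d* (0.879) and *Cd44* (0.865). For *Osmr* they included *Cd14* (0.866), *Cd63* (0.843), *Cd44* (0.843) and *Ccl2* (0.837). *Ccl2* and *Cd44* were thus among the 5 for all 3 genes. These values mix MCAO with sham and control libraries, so a difference between those groups enters them, and its part was not tested.

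The genes of the pathway, members among them, were counted in 5 lists, with the shares of all genes called higher as given above. The lists, like the members, were chosen with earlier results of these data known, so these counts are descriptions. Of 10 ligands, *Clcf1* at day 3 was the only call. *Il11*, another cytokine of the family, had 54 counts in MCAO against 4 in sham at 24 h, from 2.55 to 13.1 CPM and from 0 to 1.19 CPM, and was not called. Of 7 receptors tested, *Osmr* was called higher at 12 h and day 7, and *Osmr*, *Il6st* and *Il6ra* at day 3. *Il6ra*, the IL-6 binding chain, was at 6.41 to 28.2 CPM in MCAO and 2.81 to 7.25 CPM in sham (log2 1.61 ± 0.40, adjusted p = 0.0063). *Lifr*, the receptor chain for LIF, was at 38.4 to 52.0 CPM and 40.6 to 55.3 CPM at that time and was not called.

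Of 11 kinases and STATs, the calls included *Stat3* at 12 h and day 3 and *Stat6* at day 3. *Stat6*, which serves interleukin-4, was at 2.13 to 28.0 CPM after MCAO and 3.99 to 6.09 CPM in sham at day 3 (log2 1.46 ± 0.38, adjusted p = 0.0099). None of the 4 JAK genes was called at any time. Of 16 inhibitors, the calls were *Socs3* at 12 h and day 3 and *Ptpn6* at days 3 and 7. *Ptpn6*, a phosphatase abundant in blood cells, was at 6.41 to 81.4 CPM against 0.934 to 5.44 CPM at day 3 (log2 3.79 ± 0.59, adjusted p = 1.4e-05) and the log2 fold change at day 7 was 2.42 ± 0.56 (adjusted p = 0.0037). The median log2 ratio over the inhibitors at day 3 was 0.08, beside 0.02 over all genes. Markers of other cells were called higher at the same times, and their part in the calls of the 5 lists was not tested. At day 7 6 of 7 fibroblast, 3 of 8 microglial and 3 of 7 peripheral myeloid markers were called higher, and at day 3 3 of 7 neutrophil, 3 of 7 fibroblast and 2 of 8 endothelial ones. At day 3 the same held for 5 of 8 microglial and 3 of 7 peripheral myeloid markers, with sums of 532 to 1591 and 24.6 to 159 CPM in MCAO against 246 to 339 and 14.9 to 28.6 CPM in sham.

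Known STAT3 target genes gave the most calls, with 21 of 22 tested. There were 0 called higher at 3 h by edgeR (11 at an unadjusted p under 0.05), 5 at 12 h, 4 at 24 h, 12 at day 3 and 5 at day 7, and none was called lower at any time. Of all genes, edgeR called 0.0901%, 0.346%, 0.0801%, 3.76% and 2.07% higher in that order. At 3 h 1688 of 19970 genes had an unadjusted p under 0.05. The 12 at day 3 included the member *Bcl3*. DESeq2 called 1, 8, 6, 13 and 7 of the targets higher in that order. Without a filter on low counts edgeR called 3, 10, 8, 13 and 7, and with the compared groups alone in the fit 2, 3, 8, 8 and 5. The shares of all genes under these other settings are not given here. The median log2 ratio over the list was 1.18, 1.52, 1.27, 1.81 and 1.39 from 3 h to day 7, beside 0.00, 0.02, 0.02, 0.02 and 0.07 over all genes. At 12 h the calls were *A2m*, *Timp1*, *Cd44*, *Serpina3n* and *Gfap*, and at 24 h the same without *Cd44*. At 12 h *A2m* (α2-macroglobulin) held 110 counts against 2 (ratio 49.1, 95% counting interval 13.3 to 411), *Timp1* (an inhibitor of matrix proteases) had a log2 fold change of 4.28 ± 0.69 (adjusted p = 2.6e-04) and *Cd44* (the hyaluronan receptor) one of 3.15 ± 0.57 (adjusted p = 0.0012). At 24 h *Timp1* was at 4.60 ± 0.82 (adjusted p = 0.0018), *A2m* at 3.88 ± 0.78 (adjusted p = 0.0099) and *Serpina3n*, a serine protease inhibitor, at 3.33 ± 0.59 (adjusted p = 0.0018).

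At day 3 the calls were *Bcl3*, *Lcn2*, *Vim*, *Cd44*, *Il4ra*, *Cebpd*, *Ccnd1*, *Mcl1*, *Gfap*, *Timp1* (5.83 ± 0.78, adjusted p = 1.0e-06), *A2m* (5.44 ± 0.78, adjusted p = 4.5e-06) and *Serpina3n* (5.19 ± 0.61, adjusted p = 6.8e-08). At day 7 the calls were *A2m* (4.43 ± 0.85, adjusted p = 5.4e-04), *Cd44* (3.45 ± 0.63, adjusted p = 3.1e-04), *Vim* (3.32 ± 0.44, adjusted p = 2.8e-06), *Gfap* and *Serpina3n*. *Gfap* and *Vim* encode intermediate filaments, found in reactive astrocytes and, for *Vim*, also in fibroblasts, endothelium and myeloid cells. *Fos*, *Junb* and *Pim1*, which many other signals also induce, were not called at any time. At 3 h their log2 fold changes were 1.80 ± 0.48, 1.23 ± 0.36 and 1.40 ± 0.52 (adjusted p of 0.0946, 0.157 and 0.394, edgeR). Calls of the lists that leaving out 1 library could end were *Il6ra*, kept in 3 of 9 such fits, *Stat6* and *Mcl1*, kept in 2 of 9, *Cebpd*, kept in 6 of 9, and *Ptpn6* at day 7, kept in 5 of 9. The *Timp1*, *Serpina3n* and *A2m* calls at 24 h were kept in 4, 4 and 1 of 8, the *A2m*, *Cd44* and *Serpina3n* calls at 12 h in 8, 6 and 3 of 9, and the *Serpina3n* call at day 7 in 6 of 9.

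**Figure D5:**
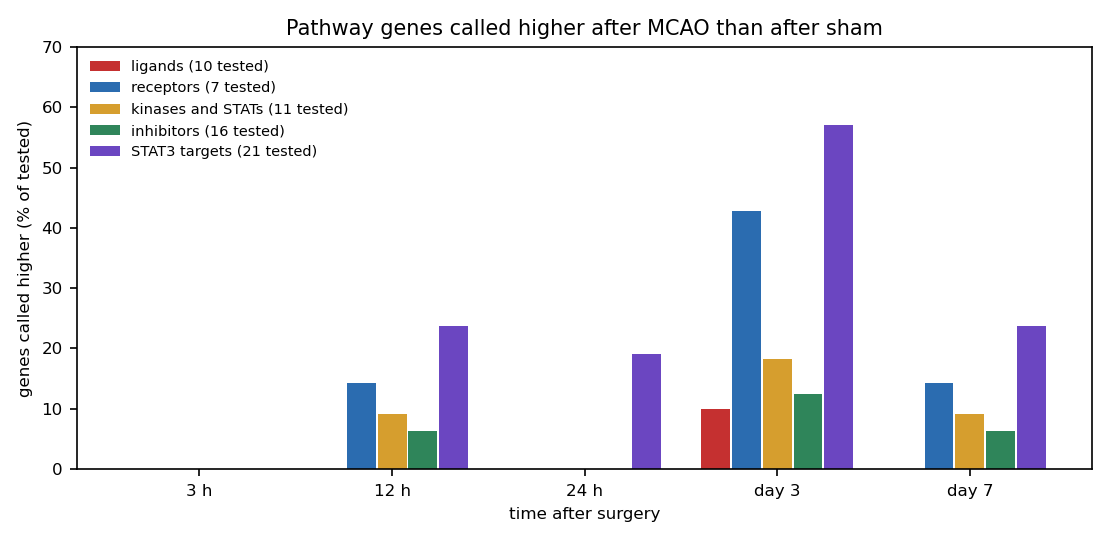
Share of the tested genes of 5 pathway lists called higher after MCAO than after sham (y axis, percent) at each time (x axis). The STAT3 targets have the highest bar at each time with calls, up to 12 of 21 at day 3, and there are no bars at 3 h.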

How the data were processed

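From 3′-end (QuantSeq) libraries, the authors took TrimmomaticSE-trimmed reads through SortMeRNA (to discard those of mitochondria and ribosomes) and STAR 2.5.2b, with GRCm38 plus ERCC spike-ins as target, and counted by Gencode vM8 gene (htseq-count, union mode). The deposited values used here were these raw counts, 1 table per library. A deposited matrix of transformed values was not used. Reads without a feature (21.1 to 30.6% of alignments listed), ambiguous reads (0.343 to 0.475%), reads aligned more than once (24.0 to 37.3%) and spike-ins stayed out of library sizes and tests. Symbols and coordinates came from Gencode vM21 on the same build.

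Libraries were grouped by the condition and time in the labels. Genes above 10 summed counts entered 1 fit with edgeR 4.0.16 in R 4.3.3 (TMM, glmQLFit and glmQLFTest, 1 coefficient per group), with Benjamini-Hochberg adjustment over all 19970 genes in each of 19 comparisons, and SE was taken as the log2 fold change over the root of F. Thresholds on the adjusted p and fold were those of the study. The fit was tested on simulated data. Intervals of pooled ratios were exact binomial (95%) and, like the floor of 3 counts, cover counting error only. DESeq2 1.42.0, other filters and scalings, the 2 groups alone, a replicate block and leaving out each library were the alternatives. Descriptions and figures used Python 3.11.15, scipy 1.17.1, pandas 2.3.3, numpy 2.4.6 and matplotlib 3.10.9. All 9 members were named whatever their values, list genes outside them only where called (up to 3 values per list and time), except *Il11*, *Lifr*, *Fos*, *Junb* and *Pim1*, which were chosen after their values were seen. The members and lists were chosen with earlier results of these data known. Values of some genes that these rules would name are not reported here.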

Additional observations from a re-analysis of the deposited data

Results flagged for a closer look

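Dixon's gap test was run 64 times, each on 1 member in 1 group of 4 or 5 libraries, where any library held more than 3 counts. It set 4 values apart from the rest of their group. Chance gives about 1 in 20, and 4 of 64 is near that rate. *Socs3* was at 4.46 CPM in control replicate A, against 5.06 to 5.14 CPM in the other 3, a gap that is large only beside the very narrow range of the group. *Socs3* was at 24.99 CPM in MCAO day 7 replicate C, against 9.67 to 13.9 CPM in the other 4. *Osm* was at 3.57 CPM in the same library, against 0 to 0.626 CPM. That library held the summed fibroblast markers at 5585 CPM and the microglial ones at 2097 CPM, the highest of its group in both, and their part in the 2 values was not tested. *Il6st* was at 59.99 CPM in MCAO 3 h replicate C, against 32.3 to 38.8 CPM in the other 4. The same library also had the highest *Socs3* of its group, at 46.98 CPM.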

How the results depend on the processing

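The number of members called higher against sham was 0, 3, 0, 6 and 1 from 3 h to day 7, and against control 0, 2, 1, 4 and 0. With DESeq2 in place of edgeR it became 2 at 24 h and 4 at day 7 against sham, and 4 at 12 h, 2 at 24 h and 1 at day 7 against control. With no filter on low counts it became 3 at 24 h and 3 at day 7 against sham, and 4, 3 and 1 at 12 h, 24 h and day 7 against control. With only the groups compared in the fit it became 1 at 3 h, 0 at 12 h, 2 at 24 h and 2 at day 3 against sham, and 1, 0, 3 and 1 against control. In that fit *Stat3* and *Socs3* lost their calls against sham at 12 h and day 3, *Osmr* at 12 h and day 7 and *Il6st* and *Clcf1* at day 3, and *Socs3* was called at 3 h, 24 h and day 7. Scaled to the ERCC spike-ins it became 1 at 24 h against sham, and 1 at 12 h and 0 at 24 h against control. That scaling moved the median log2 fold change of all genes against sham by 0.139 at 24 h, -0.217 at day 3 and 0.143 at day 7, and the calls of *Osmr* at 12 h and *Il6st* at day 3 were lost, leaving 2 and 5 members. With the replicate block it became 2 at 24 h against both sham and control, and the calls of *Socs3* at 12 h and *Il6st* at day 3 were lost. The letters did not pair the libraries, since the deviations of MCAO and sham libraries of the same time and letter had a median correlation of 0.046 over 20 pairs (lowest -0.308), with 8 above 0.1. DESeq2's size factors and edgeR's own filter moved none of these counts by over 1.5 times, but *Clcf1* did not pass that filter. The causes of these changes were not tested. The shares of all genes called under these settings, and in the fits without 1 library, are not given here. A rise or fall in members called thus has no background beside it.

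Leaving out each library gave 1 to 3 members at 12 h against sham, where only *Stat3* kept its call without MCAO replicate C or E or any sham library. Against control the range was 0 to 4 at 12 h and 0 to 1 at 24 h, with 0 without any 1 of the controls at either time, without MCAO replicate C or E at 12 h and without B, C or D at 24 h. The log2 fold change of *Il6st* at 3 h, -0.04, ranged from -0.211 to 0.086, with 0.048 without MCAO replicate D and 0.086 without sham replicate A. At day 3 against sham the range was 5 to 6. Of 914 refits of single genes against sham, 788 kept direction and side of the threshold, 105 lost a call, 19 gained one and 2 reversed. *Osm*, *Lif* and *Il6* had at most 11, 4 and 4 counts in a library, and the size of change the test could detect there was not estimated.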
